A study of Caenorhabditis elegans with 2 samples.

Results

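The annotation of Caenorhabditis elegans used here, Ensembl release 115 on the assembly WBcel235, names 269 protein-coding genes with symbols that start with nhr-, among 19973 protein-coding genes on the 6 chromosomes. All 269 were taken as members, whatever their signal. For each, the strongest region of transcription factor binding was looked up in a window that ran from 2000 bp upstream of the 5' end to the 3' end of the gene. The data are ChIP-seq (sequencing of DNA that precipitates with a protein) from 1 group of whole worms in 2 biological replicates, each with its own library. The worms were L1 larvae of strain OP355, with the genotype unc-119(tm4063) III and the integrated transgene wgIs355, pooled male and female, and of unknown age. There was no second genotype, treatment or stage. The antibody and source labels give mdl-1 as the target, but the description gives eGFP-ZK337.2, and the factor is therefore not named here. No source used here gives the promoter that drives the transgene, and signal from whole larvae does not say which cells it came from.

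Nuclear hormone receptors are transcription factors with a zinc finger DNA-binding domain and, in most, a ligand-binding domain that can take up lipids, steroids or other small molecules. Nematodes have far more of them than insects or vertebrates. A small set belongs to families shared across animals, and most of the rest are thought to derive from an ancestor like vertebrate HNF4. In worms, members with known roles act in fat and propionate metabolism, diet and pathogen responses, molting and developmental timing. MDL-1, the protein named in the antibody label, is related to mammalian MAD proteins, which bind E-box sequences such as CACGTG as partners of MAX-like proteins.

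Binding that passed the authors' threshold (called thresholded below) was found in the windows of 8 nhr genes. They are nhr-19, nhr-32, nhr-46, nhr-34, nhr-1, nhr-3, nhr-49 and nhr-14, in order of signal, and they hold 9 thresholded regions in all, 2 of them in nhr-34. The signal is the authors' value for a region, on a scale that the labels and readme texts do not define. The thresholded list was derived from the replicates' own lists as well as the pooled one by irreproducible discovery rate (IDR, a measure of how well ranks repeat), per the readme texts, so the replicate values given here are not independent of it. No other protein-coding gene had any of these 9 summits in its window. The sequences at 8 of the summits are shown to let the E-box, present at 2 of them, be set beside the sites that lack it. Each runs 50 bp either side of the summit on the plus strand of WBcel235, and capitals mark CACGTG or the GA repeat GAGAGAG on either strand. None of the stretches overlaps an annotated UTR.
nhr-19, chrII:9603577-9603677: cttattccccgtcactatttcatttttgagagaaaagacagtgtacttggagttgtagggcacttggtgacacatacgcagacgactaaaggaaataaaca
nhr-32, chrX:13251576-13251676: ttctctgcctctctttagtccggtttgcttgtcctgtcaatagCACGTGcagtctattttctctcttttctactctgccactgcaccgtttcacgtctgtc
nhr-46, chrIV:5754158-5754258: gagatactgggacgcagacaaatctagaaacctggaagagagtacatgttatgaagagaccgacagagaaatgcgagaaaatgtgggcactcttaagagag
nhr-34, stronger region, chrIV:9671169-9671269: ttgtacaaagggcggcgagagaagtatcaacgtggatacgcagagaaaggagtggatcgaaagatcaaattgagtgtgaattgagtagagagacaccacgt
nhr-34, weaker region, chrIV:9670147-9670247: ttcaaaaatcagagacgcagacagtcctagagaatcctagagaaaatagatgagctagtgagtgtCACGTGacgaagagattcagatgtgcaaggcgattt
nhr-1, chrX:17513700-17513800: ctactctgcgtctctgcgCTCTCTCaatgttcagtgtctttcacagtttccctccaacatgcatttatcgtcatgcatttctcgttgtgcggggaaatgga
nhr-3, chrX:14560336-14560436: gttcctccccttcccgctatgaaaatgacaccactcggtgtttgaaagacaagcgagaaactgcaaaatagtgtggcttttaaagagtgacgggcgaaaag
nhr-14, chrX:8477549-8477649: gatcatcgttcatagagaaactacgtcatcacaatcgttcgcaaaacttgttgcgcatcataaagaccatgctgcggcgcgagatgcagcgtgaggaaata

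The strongest binding at any nhr gene lay inside nhr-19 (WBGene00003618, chromosome II, 9598180 to 9605526, minus strand). The region, 9603576 to 9603677, had a signal of 217.0 in the pooled list (rank 12 of 30000), 113.7 in replicate 1 (rank 11) and 104.97 in replicate 2 (rank 15). Its summit was in the second intron, which is 4213 bp long, 1899 bp inside the gene and 1623 bp from the nearest annotated transcript start. No gene among the 1034 others of the same length class had a region as strong. A weaker region lay in the same intron, 4187 bp from the 5' end, with a pooled signal of 43.04 (rank 390), and it was high in replicate 2 only (25.1, rank 393, against 15.5, rank 7354, in replicate 1).

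At nhr-32 (WBGene00003626, chromosome X, 13251964 to 13256284, plus strand) the region stood upstream, with its summit at 338 bp before the gene. The pooled signal was 122.2 (rank 37), with 62.2 in replicate 1 (rank 40) and 56.9 in replicate 2 (rank 48). The E-box in the sequence above was centred 4 bp from this summit. Both replicates thus placed the regions of nhr-19 and nhr-32 among their 50 strongest.

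In nhr-46 (WBGene00003636, chromosome IV, 5747363 to 5757862, minus strand) the region was again intronic. It lay 3654 bp from the 5' end in a first intron of 7906 bp. The signal was 76.5 in the pooled list (rank 96), 30.4 in replicate 1 (rank 183) and 41.4 in replicate 2 (rank 110). The gene had a further region, which did not pass, in the same intron at 4269 bp from the 5' end, with a pooled signal of 38.5 (rank 624). That site held both a CACGTG and a GAGAGAG and was the stronger in replicate 1 (25.3, rank 456, against 12.4, rank 9999, in replicate 2).

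The gene nhr-34 (WBGene00003627, chromosome IV, 9664360 to 9675672, minus strand) had thresholded regions at 2 places in an intron of 3262 bp, 4453 and 5475 bp from its 5' end. The stronger had a pooled signal of 67.3 (rank 134), with 17.9 in replicate 1 (rank 3617) and 46.9 in replicate 2 (rank 79). The weaker had a pooled signal of 50.9 (rank 241), with 21.6 in replicate 1 (rank 1165) and 33.04 in replicate 2 (rank 184). The stronger summit was 1451 bp downstream of an annotated transcript start of the gene, and the weaker was 1002 bp upstream of another. Both sites were therefore strong in replicate 2 and outside the 259 strongest of replicate 1. CACGTG was centred 18 bp from the weaker summit, and a site centred 49 bp from the stronger summit ran past the end of the stretch printed above.

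Another, much stronger thresholded region belonged to nhr-34 by distance but lay outside its window. It spanned 9677765 to 9677865, with a summit 2149 bp upstream. The pooled signal was 205.5 (rank 15), against 99.5 in replicate 1 (rank 13) and 109.1 in replicate 2 (rank 14), and the site held a CACGTG. Other thresholded regions with an nhr gene as the nearest protein-coding 5' end were 2574 bp upstream of nhr-88 (pooled signal 155.7, rank 26, with GAGAGAG) and 8108 bp upstream of nhr-1 (pooled signal 83.6, rank 82). None of these 3 is counted in the numbers for windows of 2000 bp.

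The other genes on chromosome X with thresholded regions had lower signal. At nhr-1 (WBGene00003600, 17514063 to 17528197, plus strand) the summit was 313 bp upstream, with signals of 62.98 pooled (rank 153), 23.9 in replicate 1 (rank 650) and 37.9 in replicate 2 (rank 132). At nhr-3 (WBGene00003602, 14558504 to 14561432, plus strand) it was in the fifth intron, 926 bp long, with signals of 58.6 pooled (rank 186), 30.8 in replicate 1 (rank 178) and 25.1 in replicate 2 (rank 390). The replicates placed the nhr-3 summit 103 and 1 bp from the pooled one, the largest shift among the 9 regions. At nhr-14 (WBGene00003613, 8473722 to 8476178, minus strand), a gene with a known part in iron uptake and pathogen resistance, it was 1421 bp upstream. The nhr-14 signals were 49.8 pooled (rank 257), 23.4 in replicate 1 (rank 726) and 25.9 in replicate 2 (rank 351).

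The gene best known for its function in this group is nhr-49 (WBGene00003639, chromosome I, 9869651 to 9874680, plus strand). It encodes an HNF4-like receptor needed for the fasting response and for fatty acid desaturation and oxidation. Its region had a summit 317 bp upstream, with signals of 52.2 pooled (rank 233), 20.1 in replicate 1 (rank 1867) and 26.6 in replicate 2 (rank 319). Neither replicate alone had it among its 259 strongest, and the same was true of nhr-14.

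**Figure D1:**
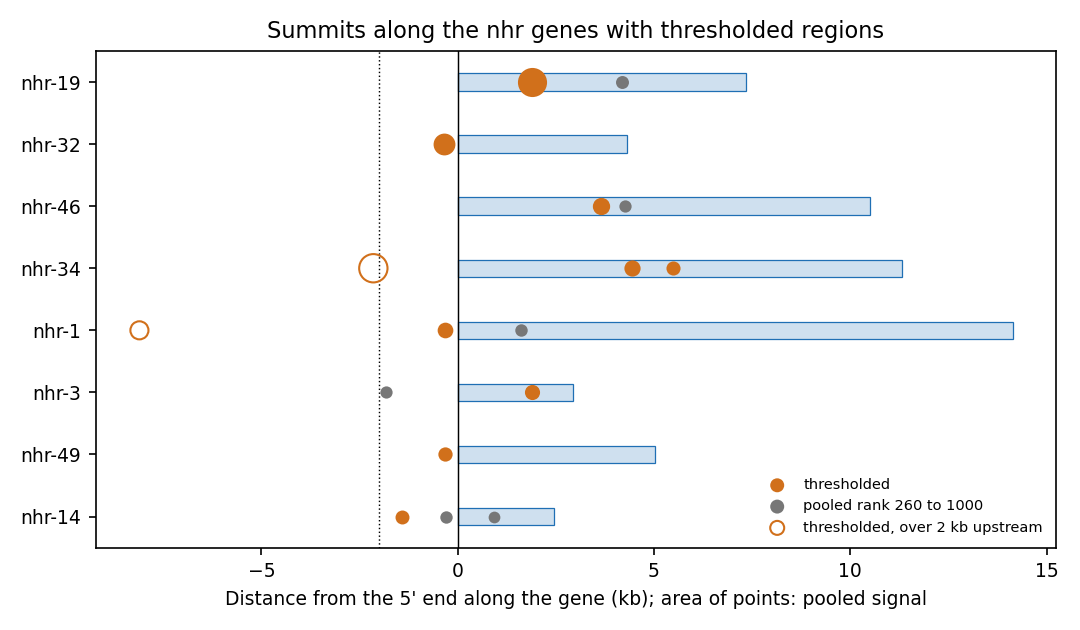
Summits of regions ranked 1000 or better in the pooled list, along the 8 nhr genes with a thresholded region. The x axis is the distance from the 5' end in kb, blue bars are the gene bodies, the dotted line is the end of the window 2 kb upstream, and the area of each point is the pooled signal. Filled orange points are thresholded regions in the window, open orange circles are thresholded regions further upstream of nhr-34 and nhr-1, and grey points did not pass. In nhr-19, nhr-46, nhr-34 and nhr-3 the thresholded summits in the window are inside the gene.

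The same sites were compared between the replicates. At 3 genes, nhr-19, nhr-32 and nhr-46, a summit among the 259 strongest regions of replicate 1 lay within 200 bp of one among the 259 strongest of replicate 2, against 0.589% of the 19704 other protein-coding genes. The list of replicate 1 put 7 nhr genes among its 259 strongest (1.24% of the others), and that of replicate 2 put 6 there (1.2% of the others). A further 7 genes were among the 259 strongest of 1 replicate only. For nhr-3 and nhr-1 the region ranked 390 and 650 in the other replicate, and the ranks of nhr-34 are given above. The remaining 4 were further apart. Upstream of nhr-69, on chromosome I, the signal was 31.8 in replicate 1 (rank 164) and 9.96 in replicate 2 (rank 19838). Upstream of nhr-105 it was 28.99 in replicate 1 (rank 222), with no region within 200 bp in replicate 2. In a coding exon of nhr-120 it was 30.2 in replicate 1 (rank 187), also with none in replicate 2. In the first intron of nhr-27, which is 100912 bp long, it was 13.7 in replicate 1 (rank 12186) and 32.5 in replicate 2 (rank 191). The pooled nhr-27 summit lay 48503 bp from the nearest transcript start of that gene and 2332 bp from the 5' end of cept-1. Of the 40 other genes in the length class of nhr-27, 15% had a pooled region as strong.

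**Figure D2:**
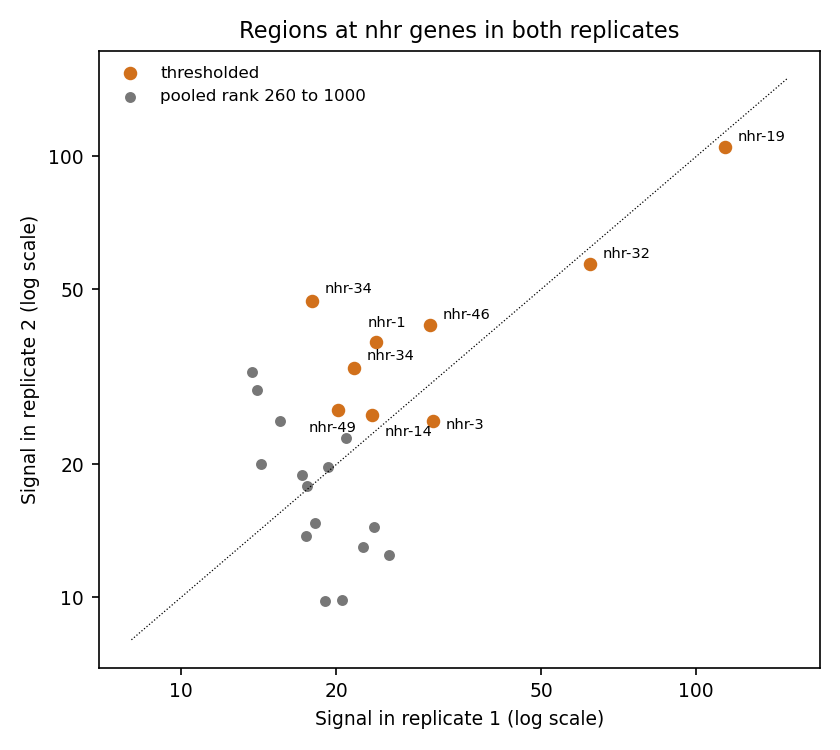
Signal of regions at nhr genes in replicate 1 (x axis) and replicate 2 (y axis), both on log scales, for pooled ranks of 1000 or better with a match in both lists. Orange points are the 9 thresholded regions and the dotted line marks equal values. nhr-19 and nhr-32 stand apart at the top of both axes, and the stronger nhr-34 site has 17.9 in replicate 1 and 46.9 in replicate 2.

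The count of nhr genes with thresholded binding was set beside all other protein-coding genes. It was 8 of 269 (2.97%, 95% exact interval 1.29% to 5.78%), against 1.27% of the 19704 others. With the others weighted to the gene lengths of the nhr genes, their share was 1.26%, a share that amounts to 3.40 of 269 genes. Among regions ranked 500 or better the count was 12, with 2.4% of the others and 6.22 genes at the weighted share. At rank 1000 it was 18, with 4.87% of the others and 12.8 genes at the weighted share. At rank 5000 it was 75, against 22.1% and 60.3 genes, and in the whole relaxed list it was 211, against 74.7% and 209.7 genes. Among these cuts the ratio to the weighted share was highest at the threshold, and it was close to equal over the whole list. It did not rise further under stricter cuts. In the stronger part of the thresholded list the count was 3, against 1.68 genes at the weighted share. For sites strong in both replicates it was 3, against 1.59 genes. Both ratios were smaller than that at the threshold, but each rests on 3 genes. Since genes are not replicates and the study has 1 group, no test was made of these counts, and the interval covers counting error only.

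**Figure D3:**
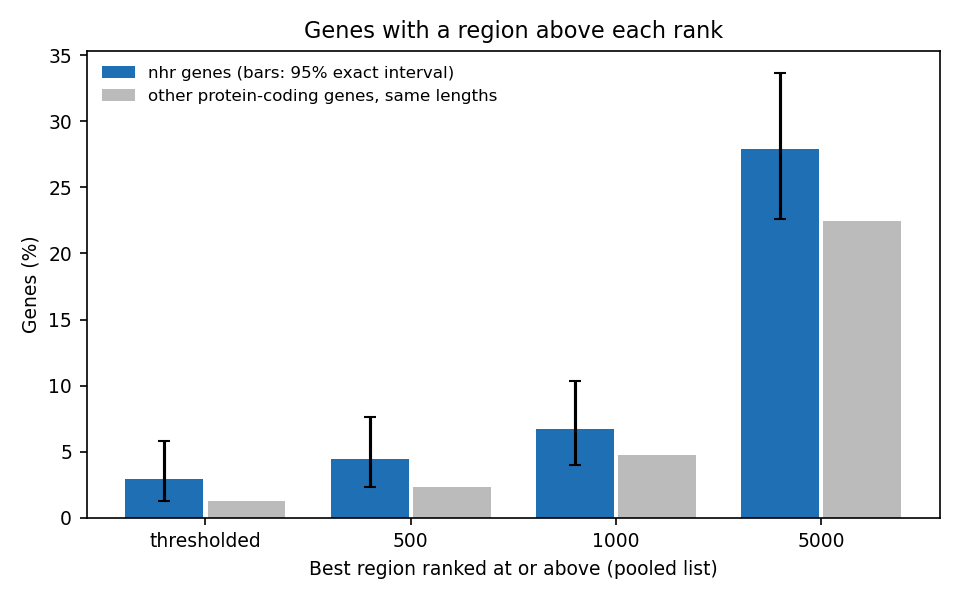
Share of genes (y axis, percent) whose best region is thresholded or ranks 500, 1000 or 5000 or better in the pooled list (x axis). Blue bars are the 269 nhr genes with 95% exact intervals, and grey bars are the 19704 other protein-coding genes weighted to the same gene lengths. The blue bar is above the grey one at each rank, 2.97% against 1.26% for thresholded regions.

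Most nhr genes carried only weak signal. The median of the best pooled signal over all 269, with genes that had no region set to 0, was 21.9 (quartiles 16.6 and 27.2), against 20.9 for the others weighted to the same lengths. In replicate 1 these medians were 14.5 and 13.1, and in replicate 2 they were 11.8 and 11.5. The lowest signal in the pooled list was 15.98 and its median was 20.3, so the best region of a typical nhr gene lay near the middle of the relaxed list. No pooled region fell in the windows of 58 nhr genes, and 17 had none in any of the pooled and replicate lists. Just under the threshold, the best regions were those of nhr-47 (47.8, rank 283), 42 bp upstream and also in the window of dnj-19, of nhr-27 (42.4, rank 412) and of nhr-106 (41.2, rank 465), in a coding exon and also in the window of str-196. The weakest region that passed had 49.8.

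Thresholded binding was found at nhr genes on chromosomes I, II, IV and X. Chromosome V holds 167 of the 269 (62.1%, against 24.5% of the other genes), in dense groups: 121 of the 167 have another nhr 5' end within 10000 bp. None of the 167 had a thresholded region, a count that allows a share of up to 1.80% (taking 3 counts of the total as the limit of a count of 0), and the share of the other genes on chromosome V was 0.767%, or 0.972 of 167 genes at the same lengths. At that share fewer than 1 gene would be counted. On chromosome X the count was 4 of 23, against 1.92% of its other genes and 3.83% at the same lengths. On chromosome IV it was 2 of 33, against 0.924% of its other genes. Without chromosome V it was 8 of 102, against 1.44% of the others and 1.73% at the same lengths, a split made after the counts were known. None of the 8 genes has another nhr 5' end within 10000 bp, against 150 of all 269 nhr genes. Of those 150, 121 are on chromosome V, where none of the 8 lies, so this is not read as a trait of the 8.

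The counts were also made by region. The windows of nhr genes on chromosome V held 201 of its 5950 relaxed pooled regions (3.38%) and 0 of its 36 thresholded ones. On chromosome IV they held 74 of 4988 relaxed regions (1.48%) and 3 of 29 thresholded ones (10.3%), of which 2 are in nhr-34. On chromosome X they held 117 of 6036 relaxed (1.94%) and 4 of 75 thresholded regions (5.33%). The median of the best signal was 21.6 for nhr genes on chromosome V, against 20.02 for its other genes at the same lengths, and 27.9 against 23.8 on chromosome X.

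**Figure D4:**
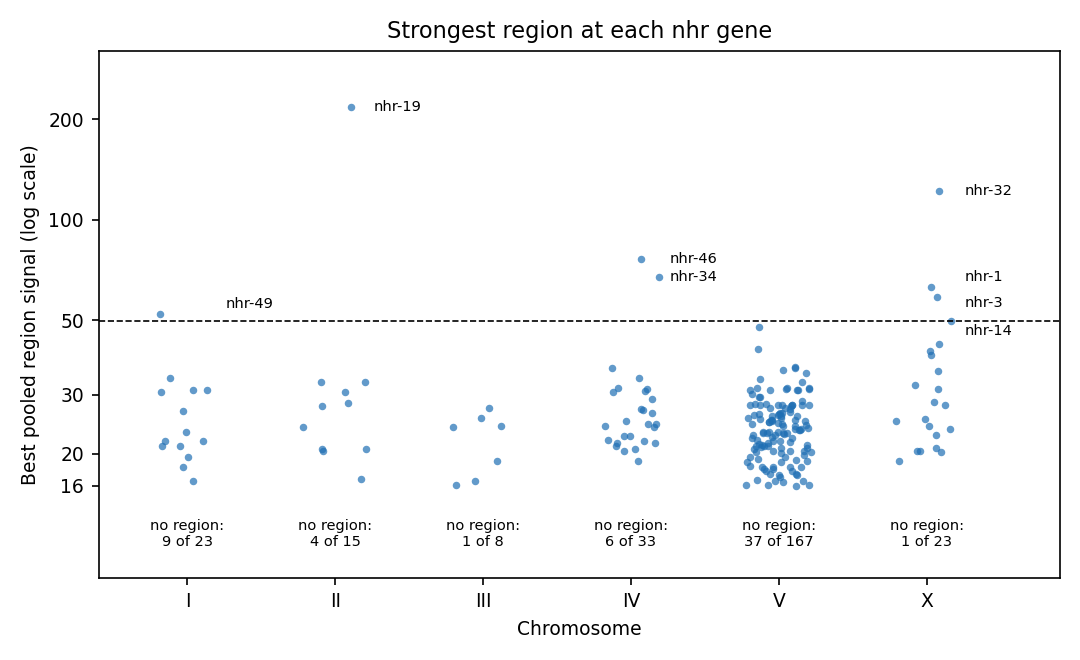
Best pooled region signal (y axis, log scale) of each nhr gene by chromosome (x axis), with the number of genes that had no pooled region written below. Each point is a gene, spread sideways at random, and the dashed line is the signal of the weakest thresholded region, 49.8. The 8 named genes are at or above the line, and every point of chromosome V is below it.

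The genes with thresholded binding were long. Their median length was 6188.5 bp, with a range of 2457 to 14135 bp, against 2270 bp for the other 261 nhr genes and 3599 bp for the 251 other protein-coding genes with a thresholded region. Of nhr genes over 5000 bp, 5 of 38 had one (13.2%), against 2.63% of the other genes of that size. Between 2000 and 5000 bp the count was 3 of 137 (2.19%), against 1.51%. At 2000 bp or less it was 0 of 94, which by the same limit of 3 counts allows a share of up to 3.19%, against 0.666%.

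Their position within the genes was counted by region and by gene. Of the 9 thresholded regions, 5 were in an intron (55.6%, 95% exact interval 21.2% to 86.3%), against 65 of the 250 thresholded regions elsewhere (26%, 20.7% to 31.9%). The intervals overlap. By gene, the best region was in an intron for 4 of 8 and upstream for 4 of 8, against 20.3% and 73.3% of the 251 other genes with a thresholded region. An upstream region can count for several neighbours among the other genes, whereas each nhr region counted for 1 gene. The shares for the 8 and the 251 genes were not matched for length, and their median lengths were 6188.5 and 3599 bp. Over all 269 nhr genes the best region was upstream in 36.4%, in an intron in 19.3%, in a coding exon in 18.96% and in a UTR in 3.72%. At the same lengths, the other genes had 35.4%, 19.04%, 19.3% and 4.27%.

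All bases of a CACGTG lay within 50 bp of 2 of 9 summits (22.2%, 95% exact interval 2.81% to 60.0%), against 63 of 250 thresholded regions elsewhere (25.2%, 19.9% to 31.1%). The interval for 9 regions spans both lower and higher shares. Within 250 bp it was found at 5 of the 9, namely the regions of nhr-32, nhr-19 (63 bp from the summit), nhr-49 (172 bp) and both of nhr-34. Regions elsewhere were not counted at this wider reach, so the 5 of 9 cannot be set beside the 25.2%. Within 50 bp, GAGAGAG was at 1 of 9, against 44 of 250 (17.6%), and the related E-box CATGTG at 0 of 9, against 25 of 250 (10%). The 95% exact intervals for the 9 regions, 0.281% to 48.2% and 0% to 33.6%, cover the shares elsewhere. Among nhr regions ranked from just below the threshold to 1000, 3 of 16 had CACGTG, against 66 of 725 regions elsewhere (9.10%). Over all regions that did not pass, it was at 11 of 455 in nhr windows (2.42%), against 672 of 29286 elsewhere (2.29%). The sites at these summits and at the 2 thresholded ones are printed to compare their flanks. Each has 12 bases either side on the plus strand, with the E-box in capitals.
nhr-32, chrX:13251607-13251636: tcctgtcaatagCACGTGcagtctattttc
nhr-34, chrIV:9670200-9670229: gctagtgagtgtCACGTGacgaagagattc
nhr-27, chrX:12759723-12759752: gacgtcgtcctcCACGTGgcctccatctcc
nhr-46, chrIV:5753553-5753582: ctgcgagcaaaaCACGTGgcggagagaggg
nhr-87, chrIV:1623859-1623888: acaaattaccccCACGTGactacttgaaac

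The E-box was common in the windows, and few of its copies lay at a summit. At least 1 CACGTG was in the windows of 139 nhr genes (51.7%), against 52.3% of the other genes, or 54.7% at the same lengths. With each copy counted once where windows overlap, 16 of 226 copies (7.08%) were centred within 50 bp of a relaxed pooled summit and 3 (1.33%) of a thresholded one, against 4.42% and 0.349% of the copies in windows of other genes. On chromosome V, 106 copies lay in nhr windows, of which 3 were at a relaxed summit and 0 at a thresholded one. Those windows held no thresholded region, so the 0 largely restates that count. Off chromosome V there were 120 copies, with 13 at a relaxed and 3 at a thresholded summit. The 3 belong to nhr-32 and nhr-34, and include the nhr-34 copy whose centre, but not all of its bases, lay within 50 bp of the summit. The GA repeat was less dense in nhr windows on chromosome V (1.06 matches per 10 kb) than in those elsewhere (4.04 per 10 kb) or in windows of other genes (2.52 per 10 kb), with overlapping matches counted and shared windows counted once. By gene, at least 1 match was in 29.3% of nhr windows on chromosome V, 54.9% of those elsewhere and 40.6% of windows of other genes. These shares by gene were not adjusted for window length, and a longer window has more room for a match. The median length of nhr genes was 2146 bp on chromosome V, against 2309 bp over all nhr genes. Other genes on chromosome V were not counted apart for the E-box or the GA repeat. A difference of the chromosome therefore cannot be told from one of nhr genes.

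Members of receptor families shared with insects or vertebrates were looked up as a list of 10. None had a thresholded region, and at the 1.27% of other protein-coding genes fewer than 1 of 10 would, so the count says nothing particular to these families. The highest was nhr-48, a relative of daf-12, with a region 755 bp upstream (pooled signal 39.3, rank 563, and ranks 2403 and 1129 in replicates 1 and 2). The median of the best pooled signal over the 10, not set against genes of the same lengths, was 24.1. It was 21.1 at nhr-23, the ROR-like gene that drives molting, 24.2 at nhr-25, the relative of Ftz-F1 and SF-1 in the epidermis, and 22.6 at nhr-67, the relative of tailless. The Rev-erb-like nhr-85, which acts in the timing of larval development, had 16.6 (rank 27443), near the end of the list. The best regions of the remaining genes had 24.05 at nhr-6, of the NR4A family, 21.8 at nhr-8, which acts in cholesterol balance, 27.04 at nhr-41, 28.6 at nhr-91 and 27.9 at nhr-111.

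Among 12 members with metabolic or stress roles, nhr-49 was the only one with a thresholded region, against 1.27% of the other protein-coding genes. That count rests on 1 gene, in a list chosen with earlier results of these data known. It is therefore not read as a trait of members with these roles. After nhr-49 the highest was nhr-66, a partner of NHR-49, at 33.7 (rank 1220), followed by nhr-62, which acts in the response to dietary restriction, at 30.5 (rank 2202). Genes of the propionate shunt regulators had 27.3 (nhr-10) and 29.6 (nhr-68). Those of NHR-49 partners in fatty acid desaturation had 27.98 (nhr-13) and 16.5 (nhr-80). The value was 27.3 at nhr-114, which acts in the response to diet, 21.8 at the hypoxia-induced nhr-57, and 16.05 at nhr-86, a sensor of a bacterial metabolite. The muscle gene nhr-40 had 27.9 and nhr-28 had 23.6. The median over the 12, also not set against genes of the same lengths, was 27.6.

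Genes around the receptors were looked up in the same way. In the lists of this paragraph no gene had a thresholded region, and at the background of 1.27% fewer than 1 gene of any of them would. Receptor genes with other names numbered 5. The highest was daf-12, the steroid receptor of the dauer decision, at 36.5 (rank 790) in an intron, matched in replicate 2 (27.05, rank 304) but not in replicate 1. The gene is 30968 bp long, and 18.1% of genes in its length class had a region as strong. The remaining receptor genes were sex-1, a signal of X dosage, at 26.2, fax-1 at 21.3, unc-55 at 20.6 and odr-7 at 17.9. Among 8 cofactor and ligand pathway genes, ncr-1 was highest at 30.9, with no pooled region at mdt-15, a Mediator subunit that works with NHR-49. At din-1, a corepressor of DAF-12, the best region of replicate 2 had 34.3 (rank 170), but the best pooled region, at a different site, had 28.4 (rank 3321). Of 10 target genes of NHR-49, NHR-80, NHR-10 and NHR-68, the desaturase gene fat-6 was highest at 30.3, with no pooled region at fat-5 or ech-6.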

How the data were processed

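Regions came from the authors' deposited ce11 lists: relaxed lists of 30000 regions for the pooled reads and for each of 2 replicates of 1 group, and an IDR thresholded list of 259, which are the strongest 259 of the pooled list. The signal of each region is the authors' deposited value. Peak caller, aligner, scaling and IDR cutoff are not stated in the labels or files. Each relaxed list derives from alignments and a further input that the readme texts do not describe, per those texts, and no control data were analysed here. The files hold no read counts, so depth is unknown. Lists for ce10 were not used.

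Summits were assigned with Ensembl release 115 on WBcel235, and sequences were read from the RefSeq copy of that assembly. Other genes were weighted to the nhr genes' spread over length bins of 0.5 log2 units (a bin under 20 genes joined its shorter neighbour). An intron site lies in no exon of the gene or, for the thresholded regions elsewhere, in no exon of any protein-coding gene. Replicate summits match within 200 bp. Intervals are 95% Clopper-Pearson, and the limit given for a count of 0 is 3 counts of the total. No test was run. Counting was checked on simulated lists. Python 3.11.15, numpy 2.4.6, pandas 2.3.3, scipy 1.17.1 and matplotlib 3.10.9 were used. Members, lists and sequences were chosen with earlier results of these data known. Named genes are those with a thresholded region or a rank within 259 in either replicate, the 3 next below, and fixed lists of conserved, metabolic, other receptor, cofactor and target genes. The genes nhr-20, nhr-87 and nhr-88, with the regions outside the windows, were named after their values were seen.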

Additional observations from a re-analysis of the deposited data

How the results depend on the processing

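The count of 8 nhr genes (3.40 at the share of the other genes of the same lengths, which follows each count in parentheses) was 7 with 1000 bp upstream (2.67), 10 with 5000 bp upstream (4.85, adding nhr-20 and nhr-88), 12 among the 500 strongest regions (6.22), and 8 (2.51 to 3.53) when any base counted, with each summit given to 1 gene, with length bins of 0.25, with X and autosomes weighted apart and, an alternative added after seeing the data, without regions within 50 kb of mdl-1. It was 4 with the gene body only (0.867), 3 in the stronger 0.5 of the thresholded list (1.68) and 18 among the 1000 strongest (12.8). These settings count fewer or more regions, and the values in parentheses moved in the same direction but not in proportion. With a replicate left out the count of nhr genes was 6 to 7 (3.12 to 3.20), nhr-19, nhr-32 and nhr-46 were the only genes counted in each, and nhr-14 and nhr-49 were counted in neither. The median best signal, 21.9, was 21.1 to 22.8 with 1000 bp upstream or any overlap and 24.2 with 5000 bp. It was 11.8 to 14.5 with a replicate left out, where signal is on the scale of 1 library. The count of 3 genes strong in both replicates (1.59) was 3 with summits at most 50 bp apart (1.30), 4 at rank 500 (2.55) and 6 at rank 1000 (3.33). The shares of CACGTG (21.4% to 55.6%) and of introns (50% to 66.7%) lay inside the interval of the main value in every alternative run. Those intervals, from 9 regions, are wide (2.81% to 60.0% and 21.2% to 86.3%). The alternatives also share regions with the main run, so lying inside says little about stability. No paired analysis was possible because the study has 1 group. How depth limits weak regions cannot be read from the files, which hold no counts.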

Other observations

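The sequence CGCAGA was noticed on reading the stretches at the nhr summits and then counted, so its counts are a description with no test. On either strand it was within 50 bp of 5 of the 9 thresholded summits at nhr genes (55.6%, 95% exact interval 21.2% to 86.3%), namely those of nhr-19, nhr-46, nhr-1, which holds 2 copies, and both of nhr-34. It was at 47 of the 250 thresholded regions elsewhere (18.8%, 14.2% to 24.2%). Below the threshold the nhr regions were not the higher ones. From there to rank 1000 it was at 1 of 16 nhr regions (6.25%), against 58 of 725 elsewhere (8%), and over all regions that did not pass it was at 12 of 455 nhr regions (2.64%), against 845 of 29286 elsewhere (2.89%). Only 1 of the 5 summits, the weaker of nhr-34, also had CACGTG within 50 bp. The 2 regions of nhr-34 share a gene and an intron.

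The GC content within 50 bp of the summit had a median of 45.5% at the 9 nhr regions, against 49.5% at the other thresholded regions and 35.6% over the relaxed list.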
